A study of Mus musculus with 20 samples.

Results

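The C1q-high macrophages of 4T1.2 breast tumors were 514 of 3811 cells with Csf1r transcripts and few neutrophil transcripts, out of 10885 tumor cells in all. The single-cell RNA sequencing (scRNA-seq) data came from tumor-associated macrophages (TAM), FACS-purified from 4 BALB/c female mice with 4T1.2 cancer, a transplanted mammary carcinoma used as a model of triple-negative breast cancer. The mice were 8–12 weeks old, the labels call the cells macrophages isolated from tumor samples, and tumors were the only condition, so C1q-high cells could be compared only with other cells of the same tumors. The same series holds macrophages made in culture from bone marrow B cells (B-MF, 2 libraries) and from monocytes (Mo-MF, 2 libraries), both after 7 days in medium conditioned by 4T1.2 cells. Cells were chosen by measured values in 3 steps: fewer than 300 corrected counts of S100a8 plus S100a9, the calprotectin subunits that fill neutrophils, at least 1 count of Csf1r, the receptor of M-CSF, and at least 30 counts summed over C1qa, C1qb and C1qc. The values of these 6 genes and of Ms4a7, Ccl8, Ccl12 and Mrc1, the markers given with the cell type, are therefore a description and carry no test. The 4 tumor libraries are numbered 2 to 5 after the deposited columns, since the labels do not tie a column to a mouse.

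C1q is the recognition molecule of the classical complement pathway and is built from A, B and C chains, which are encoded by the neighboring genes C1qa, C1qb and C1qc. Most plasma proteins come from the liver, but C1q is made mainly by macrophages and dendritic cells. It binds immune complexes and dying cells and marks them for uptake. In tumors, macrophages rich in C1q are usually described next to cells that still carry the transcripts of blood monocytes, such as Ly6c2, Ccr2, Plac8 and Vcan, and PU.1 and MAF-family factors are known regulators of macrophage genes.

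The promoters of C1qb, C1qc, the markers Ms4a7 and Ccl8 and the leading gene Cd72 are shown because letters that PU.1 and MAF factors can recognize lie in them. Each run gives the 250 bases before a RefSeq transcription start, 5′ to 3′ on the gene's strand in GRCm38.p6, with capitals for the PU.1 core (GGAAGT, or ACTTCC on the other strand) and the core of the MAF recognition element (TGCTGA, or TCAGCA on the other strand), which did not overlap each other. C1qc lies on chr4:136892915-136893164 (minus strand) and its start is inside the annotated gene. C1qb lies on chr4:136886201-136886450 (minus strand). Ms4a7 lies on chr19:11336147-11336396 (minus strand) and has 2 starts, of which the first is shown. Cd72, the gene with the largest increase in C1q-high cells among genes tested outside the rule and the markers with a mean of at least 1 count in the higher group, lies on chr4:43454627-43454876 (minus strand) with its start inside the annotated gene. Ccl8 lies on chr11:82114935-82115184 (plus strand).
C1qc: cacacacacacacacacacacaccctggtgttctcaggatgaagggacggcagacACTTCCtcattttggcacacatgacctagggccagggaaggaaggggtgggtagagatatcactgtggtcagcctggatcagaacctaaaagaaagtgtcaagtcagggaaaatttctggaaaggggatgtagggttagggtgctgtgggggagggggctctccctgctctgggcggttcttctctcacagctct
C1qb: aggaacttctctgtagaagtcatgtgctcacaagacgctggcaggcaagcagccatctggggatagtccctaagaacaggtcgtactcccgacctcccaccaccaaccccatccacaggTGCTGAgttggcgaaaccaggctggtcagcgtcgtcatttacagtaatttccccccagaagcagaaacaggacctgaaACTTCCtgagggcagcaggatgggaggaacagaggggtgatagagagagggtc
Ms4a7: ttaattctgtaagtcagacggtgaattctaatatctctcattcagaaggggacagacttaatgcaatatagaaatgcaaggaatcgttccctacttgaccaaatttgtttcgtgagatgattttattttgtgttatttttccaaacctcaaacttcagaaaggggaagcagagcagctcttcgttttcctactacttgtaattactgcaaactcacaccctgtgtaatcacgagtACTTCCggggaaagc
Cd72: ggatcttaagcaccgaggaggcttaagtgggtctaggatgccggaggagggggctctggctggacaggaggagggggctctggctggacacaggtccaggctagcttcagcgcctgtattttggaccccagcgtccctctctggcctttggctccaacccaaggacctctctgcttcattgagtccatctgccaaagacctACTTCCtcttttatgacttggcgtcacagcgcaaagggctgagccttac
Ccl8: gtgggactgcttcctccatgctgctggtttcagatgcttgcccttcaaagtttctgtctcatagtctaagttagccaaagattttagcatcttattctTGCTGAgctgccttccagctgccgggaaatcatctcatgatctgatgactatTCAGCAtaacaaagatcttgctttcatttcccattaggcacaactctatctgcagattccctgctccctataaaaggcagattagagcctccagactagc
The PU.1 core was found in the promoters of 5 of 6 C1q genes and markers with a sequence (C1qb, C1qc, Ms4a7, Ccl12 and Mrc1), in 4 of 7 of the leading higher genes described below (Cd72, Slamf9, Cd63 and Cxcl9) and in 1 of 8 of the leading lower genes (Slpi). It occurred in 20% of the windows of all 27025 genes. The MAF core was found in C1qb, Ccl8 and Ccl12, in 0 of 7 leading higher genes and in 2 of 8 leading lower genes (Slpi and Hopx), against 15.8% of all genes. The letters describe the sequence and do not show binding.

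C1q-high cells made up 320 of 1541, 33 of 581, 76 of 836 and 85 of 853 Csf1r-positive cells in libraries 2, 3, 4 and 5. These were 20.8% (95% Clopper-Pearson interval 18.8–22.9), 5.68% (3.94–7.88), 9.09% (7.23–11.2) and 9.96% (8.04–12.2), and the intervals cover counting error only. Library 2 had the highest share and library 3 the lowest, and library 2 alone supplied more of the C1q-high cells than the other 3 together. Another 147 cells passed the C1q threshold but held 300 or more S100a8 and S100a9 counts, and 123 passed it without a Csf1r count. They were left out by the rule. The C1q genes lie side by side on chromosome 4 (GRCm38.p6, RefSeq), C1qa at chr4:136895916-136898844, C1qc at chr4:136889801-136892936 and C1qb at chr4:136880126-136886200. C1qa had 35.0, 30.6, 31.7 and 33.1 counts per cell in C1q-high cells of libraries 2, 3, 4 and 5 and 0.724, 0.591, 0.582 and 0.473 in the other cells. C1qb had 25.7, 22.8, 22.2 and 23.5 against 0.576, 0.493, 0.404 and 0.383, and C1qc 21.7, 16.6, 20.3 and 19.5 against 0.458, 0.380, 0.372 and 0.346. C1qa was the highest and C1qc the lowest of the 3 chains in every library. The median C1q sum was 77.0, 58.0, 66.5 and 64.0 in C1q-high cells of the 4 libraries and 0 in the other cells of each.

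Corrected counts are brought to a shared depth by the normalization, so their totals cannot show whether sequencing depth was alike. The mean over libraries of the median corrected count was 8390 in C1q-high and 8542 in other cells (exact sign-flip permutation test, two-sided, p = 0.13, which is the smallest that 4 libraries allow), with medians of 2514 and 2543 detected genes (exact sign-flip permutation p = 0.375). Mitochondrial transcripts took a median of 3.19% of counts in C1q-high and 2.76% in other cells, higher in 4 of 4 libraries (exact sign-flip permutation p = 0.13). Only 2 C1q-high cells shared a barcode with a cell of another library and 0 with another C1q-high cell. No doublet caller was run. The 5030 cells with 300 or more S100a8 and S100a9 counts, which are neutrophil-rich and have a median of 7564 counts, were taken as a reference for free RNA. Of them 147 held 30 or more C1q counts, so their C1q shares are not those of free RNA alone. A C1qa count was present in 100% of C1q-high, 16.2% of other Csf1r-positive and 28.3% of neutrophil-rich cells, and with every cell thinned to 5000 counts in 99.8%, 13.5% and 25.2%. The share in other Csf1r-positive cells was thus lower than in neutrophil-rich cells, with and without thinning. The part of free RNA in low C1q counts was not tested.

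The cells carried macrophage transcripts. Of 10 macrophage identity genes, Adgre1 (F4/80), Aif1, Mertk and Cd68 were higher in C1q-high cells than in other Csf1r-positive cells, and 4 were lower, among them Cd14, Lyz2 and Tyrobp, next to 19% higher and 24.3% lower over all genes tested. The list summed to 79.6–90.4 counts in C1q-high and 111–123 in other cells, without overlap, so its total was lower in C1q-high cells. Mertk reached the level needed for a test only through the C1q-high cells. Adgre1 had 1.05, 1.21, 1.16 and 1.35 corrected counts per cell in C1q-high cells of libraries 2, 3, 4 and 5 and 0.346, 0.398, 0.416 and 0.439 in the other cells. The groups did not overlap, and the difference was 1.37 ± 0.1 (SE) on the log2 scale (limma, adjusted p = 2.2e-05, n = 4 libraries). Cd14, the lipopolysaccharide co-receptor, had 4.11, 6.49, 4.82 and 6.01 counts in C1q-high and 15.7, 14.9, 16.4 and 17.2 in other cells. It was lower in every library (log2 difference -1.59 ± 0.13, limma adjusted p = 4.2e-05). Csf1r itself, which the rule requires in both groups, had 3.01 ± 0.441 and 2.70 ± 0.107 counts (SD, n = 4 libraries), and the libraries overlapped.

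The markers given with the cell type were all higher in C1q-high cells. Ms4a7, a tetraspan membrane protein of macrophages, had 6.12, 9.0, 8.80 and 6.79 counts per cell in libraries 2, 3, 4 and 5 and 0.973, 0.425, 0.476 and 0.469 in the other cells. Mrc1, the mannose receptor CD206, had 4.13, 5.82, 2.51 and 4.31 and 1.18, 0.504, 0.747 and 0.602, with library 3 the highest and library 4 the lowest among C1q-high cells. For both genes the 4 libraries of one group lay above the 4 of the other. The chemokine Ccl12 had 4.09, 4.64, 2.0 and 3.20 against 0.643, 0.210, 0.322 and 0.217 counts. The chemokine Ccl8 had 3.98, 9.54, 9.51 and 4.61 against 0.120, 0.0347, 0.0960 and 0.163, so it varied more between libraries than the other markers. Only 19.3% of C1q-high cells had a Ccl8 count, against 4.22% of other cells and 7.69% of neutrophil-rich cells (thinned, 17.9%, 2.94% and 6.08%), so the share in other cells was no higher than in neutrophil-rich cells. Ms4a7 was counted in 74.3% of C1q-high cells, against 22.8% and 12.1%, and Mrc1 in 66.3%, against 20.4% and 6.66%. A Ccl8 count was thus found in few C1q-high cells and an Ms4a7 or Mrc1 count in most.

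Of 6716 genes tested outside the rule and the markers, 1279 (19%) were higher and 1631 (24.3%) lower in C1q-high cells by limma with the library as a block (Benjamini-Hochberg adjusted p under 0.05), and the median log2 difference over all genes was -0.0365. The library means of the 2 groups did not overlap for 2773 genes (41.3%). Without library 2, which holds 320 of the 514 C1q-high cells, 1036 genes were lower and 879 higher. Without the cells in cycle (3 or more counts over 21 cell cycle genes), 755 of 6616 genes (11.4%) were higher and 1338 (20.2%) lower. That comparison used libraries 2, 4 and 5, since library 3 kept fewer than 20 C1q-high cells, and leaving out library 3 alone gave 1356 higher and 1860 lower genes. A gene was tested if its mean over the groups and libraries reached 0.1 counts. Of the 1279 higher genes 239 had a mean under 0.1 in the other cells, and of the 1631 lower genes 189 had one under 0.1 in the C1q-high cells. Such genes were tested only because they were high in one group. The shares of 19% higher and 24.3% lower are the background for the count of every list that follows. The mitochondrial share moved with the same groups, and its part in these counts was not tested. Levels are mean SCTransform-corrected counts per cell, and fold changes are differences of log2 of the mean plus 0.1, which understates the change of low genes.

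The leading genes described next are the 10 with the largest difference in each direction among genes with a mean of at least 1 count in the group where they are high, so some reached that level through this group alone, and genes of lower level can differ by more. The largest increase was that of Cd72, an inhibitory C-type lectin best known from B cells and also made by macrophages. It had 2.39, 1.58, 3.1 and 2.65 counts per cell in C1q-high cells of libraries 2, 3, 4 and 5 and 0.201, 0.148, 0.143 and 0.0964 in the other cells. Every C1q-high library was above every other library, and the log2 difference was 3.33 ± 0.18 (SE, n = 4, limma adjusted p = 6.7e-06). A Cd72 count was present in 68.1% of C1q-high, 8.61% of other and 7.10% of neutrophil-rich cells. Slamf9, a receptor of the SLAM family, had 1.73, 1.12, 2.28 and 1.31 against 0.178, 0.0858, 0.151 and 0.0833 counts (log2 difference 2.90 ± 0.12, adjusted p = 3.8e-06). Cadm1, an adhesion molecule of the immunoglobulin superfamily, had 1.44, 1.09, 1.58 and 1.17 against 0.13, 0.0894, 0.121 and 0.0690 (2.81 ± 0.11, adjusted p = 2.7e-06). In both genes library 4 was the highest and library 3 the lowest of the C1q-high profiles. Ccnd1 (cyclin D1) had 1.56 ± 0.318 against 0.201 ± 0.0817 counts (SD, n = 4). The tetraspanin Cd81 had 1.5 ± 0.377 against 0.182 ± 0.0206, and Cd63, a tetraspanin of late endosomes and lysosomes, 5.66 ± 0.417 against 1.13 ± 0.198. Their log2 differences were 2.48 ± 0.11, 2.48 ± 0.15 and 2.24 ± 0.11, all with separate groups.

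Cxcl9, a ligand of CXCR3 induced by interferon-γ, had 4.49, 2.88, 4.78 and 8.93 counts in C1q-high and 1.48, 0.759, 1.57 and 0.887 in other cells. Library 5 was the highest C1q-high profile, and the groups did not overlap (log2 difference 2.02 ± 0.25, limma adjusted p = 0.00025). Dnase1l3, an enzyme that digests DNA in chromatin, had 1.02 ± 0.450 against 0.157 ± 0.0565 counts (log2 difference 2.05 ± 0.14). Blvrb, a biliverdin reductase, had 2.73 ± 0.470 against 0.622 ± 0.0956 (1.97 ± 0.13), and Serpina3g, a serine protease inhibitor with close copies beside it, so that its reads are uncertain, 1.34 ± 0.514 against 0.261 ± 0.0762 (1.93 ± 0.14). All 3 separated the groups in every library.

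The genes with the largest decrease included products of monocytes. Plac8, a transcript of Ly6C-positive monocytes, had 3.24, 4.91, 2.92 and 3.66 counts in C1q-high cells of libraries 2, 3, 4 and 5 and 16.3, 16.5, 17.2 and 19.1 in the other cells. The drop was -2.22 ± 0.14 (SE) on the log2 scale, and the groups were far apart (limma adjusted p = 9.6e-06). Thbs1, thrombospondin, had 0.634, 2.0, 0.553 and 0.776 against 7.12, 5.15, 6.53 and 6.85 counts (-2.74 ± 0.29, adjusted p = 0.00013), with library 3 above the other C1q-high profiles. Vcan, the matrix proteoglycan versican, had 0.338, 0.697, 0.118 and 0.271 against 2.65, 2.38, 2.74 and 3.26 (-2.79 ± 0.27, adjusted p = 8.2e-05). Slpi, a secreted inhibitor of neutrophil elastase, had 1.12, 7.09, 0.461 and 0.682 against 12.7, 9.38, 8.54 and 10.8 counts. Library 3 held several times more Slpi than the other C1q-high profiles but was still below every profile of other cells (-2.88 ± 0.48, adjusted p = 0.0014). Dmkn (dermokine) had the largest decrease, from 1.73 ± 0.498 to 0.120 ± 0.0554 counts (SD, n = 4, log2 difference -3.04 ± 0.15). Inhba, the activin A subunit, fell from 2.49 ± 1.25 to 0.355 ± 0.316, and Hp, haptoglobin, from 3.76 ± 0.867 to 0.685 ± 0.300. Hopx, Ly6c1 and Sdc1 (syndecan 1) had log2 differences of -2.45, -2.35 and -2.34. Reads of Ly6c1 and Ly6c2 are uncertain because the genes are near copies. The plot of markers and leading genes by library shows these levels.

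**Figure D1:**
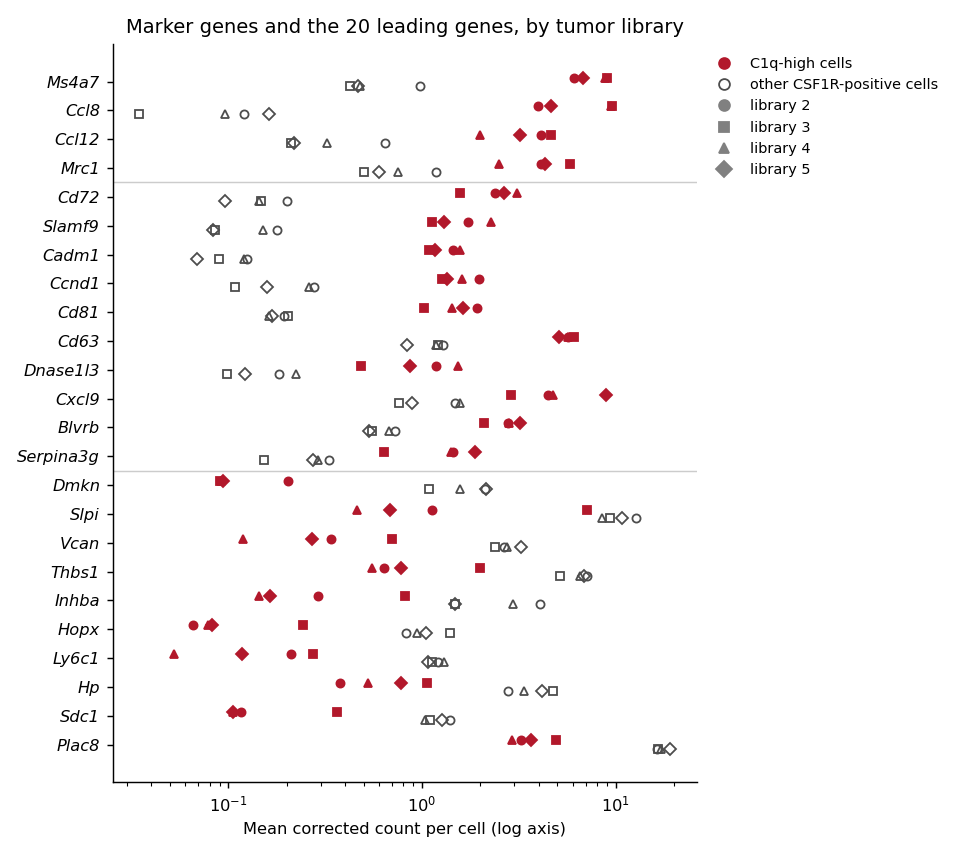
Mean corrected counts per cell (log axis) of the 4 markers and of the 20 leading genes (10 in each direction with the largest differences among genes with a mean of at least 1 count in the higher group), with 1 point per tumor library for C1q-high cells and for the other Csf1r-positive cells. Cd72 lies between 1.58 and 3.1 in C1q-high cells and between 0.0964 and 0.201 in the other cells, and for each gene the 4 points of one group lie on one side of the other 4.

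Of 15 monocyte identity genes tested, 14 were lower and 1, Treml4, was higher, against 24.3% and 19% of all genes. Of the 14, Chil3 and 1 other reached the level needed for a test only through the other cells, where they are high. Their summed level was 11.3–18.6 counts in C1q-high and 43.6–50.7 in other cells. Ccr2, the receptor that brings monocytes out of the bone marrow, had 1.81, 3.0, 2.22 and 1.59 counts in C1q-high and 4.48, 5.91, 5.61 and 6.42 in other cells. No library overlapped (log2 difference -1.37 ± 0.15, limma adjusted p = 0.00018). Ly6c2 had 0.191 ± 0.0658 against 1.16 ± 0.112 (-2.13 ± 0.14). Fn1 (fibronectin) and Chil3 had differences of -1.40 ± 0.18 and -2.17 ± 0.16. Of the other chemokine receptors, Ccr1 (-0.83 ± 0.16) and Cxcr4 (-0.55 ± 0.1) were lower, and Cx3cr1, the fractalkine receptor of patrolling monocytes and many resident macrophages, was higher. Cx3cr1 had 1.61, 1.70, 0.684 and 1.11 against 0.319, 0.513, 0.403 and 0.344 counts (1.42 ± 0.19, adjusted p = 0.00043). Over the 9 chemokine receptors, 1 was higher and 5 were lower, next to 19% and 24.3% of all genes, and 2 of the 5 were tested only through the other cells.

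Of 8 CC chemokines tested besides the markers, Ccl7 was higher, Ccl9 and Ccl24 were lower and 5 were not called, which is near the shares over all genes tested (19% higher and 24.3% lower). Ccl7, a CCR2 ligand, had 1.60, 1.61, 0.947 and 1.42 against 0.532, 0.259, 0.382 and 0.105 counts (log2 difference 1.92 ± 0.25, limma adjusted p = 0.00035). Ccl2, another CCR2 ligand, had 1.74 ± 0.773 against 1.18 ± 0.269 and did not pass (adjusted p = 0.17). Of 8 CXC chemokines, 4 were higher (Cxcl9, Pf4, Cxcl16 and Cxcl14) and 3 lower (Cxcl1, Cxcl2 and Cxcl3), next to the same shares, and the lower 3 are ligands of CXCR2, the main chemokine receptor of neutrophils. Pf4 (platelet factor 4) had 9.15, 5.94, 8.70 and 9.28 against 4.82, 2.31, 2.19 and 0.910 (1.85 ± 0.3, adjusted p = 0.0012), and Cxcl16, a ligand of CXCR6 that also takes up oxidized lipoprotein, 4.19 ± 0.504 against 1.24 ± 0.336 (1.71 ± 0.13). Cxcl2, a neutrophil attractant, had 25.5, 46.7, 23.6 and 39.7 counts in C1q-high and 89.3, 70.5, 85.9 and 76.1 in other cells (-1.30 ± 0.2, adjusted p = 0.00099). The groups did not overlap for any of the 3.

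Of 20 receptors for dying cells and scavenged ligands that could be tested, out of 26, 11 were higher and 3 lower (Lrp1, Timd4 and Pros1). The shares over all genes were 19% and 24.3%. Of the 11, 7 (Cd163, Folr2, Gas6, Axl, Lyve1, Siglec1 and Mertk) reached the level needed for a test only through the C1q-high cells, so the count describes these genes and not the list. Timd4 of the lower genes was tested only through the other cells. Cd163, the hemoglobin-haptoglobin receptor, had 0.591, 1.18, 0.395 and 0.529 counts in C1q-high cells and 0.0238, 0.0201, 0.00658 and 0.0156 in the other cells (2.64 ± 0.18, limma adjusted p = 1.4e-05). Folr2, a folate receptor of tissue macrophages, had 0.681, 0.909, 0.895 and 0.718 against 0.112, 0.0529, 0.0263 and 0.0169 (2.60 ± 0.17, adjusted p = 1.2e-05). In the other cells both were close to 0. Gas6 and Axl, a bridging ligand and its receptor tyrosine kinase, had differences of 2.22 ± 0.1 and 1.84 ± 0.13, and Mertk, the related receptor, 0.84 ± 0.17. Stab1 (stabilin 1) had 1.05 ± 0.510 against 0.265 ± 0.0384 counts, Siglec1 (CD169) 0.224 ± 0.0738 against 0.0212 ± 0.00783, and Trem2, a lipid receptor, 1.54 ± 0.300 against 0.784 ± 0.0924. Timd4, a phosphatidylserine receptor of long-lived resident macrophages, was at 0–0.156 counts in C1q-high cells and 0.0201–0.300 in other cells.

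Apart from C1q, complement genes were divided, 5 higher and 5 lower of 12, next to 19% and 24.3% of all genes. Cfp (properdin), which stabilizes the alternative pathway convertase, had 3.70, 4.85, 3.95 and 3.99 against 1.59, 1.38, 1.56 and 1.40 counts (1.41 ± 0.12, limma adjusted p = 4.8e-05). Itgax (CD11c), a chain of complement receptor CR4, had a log2 difference of 1.21 ± 0.14, C3ar1, the C3a receptor, 1.0 ± 0.14 and C4b 0.96 ± 0.12. C3, the central component, was lower, with 0.715 ± 0.172 against 1.25 ± 0.114 counts (-0.75 ± 0.12), as was C5ar1, the C5a receptor (-0.50 ± 0.12). Without library 2, 2 in place of 5 complement genes were lower. Of 7 Fc receptors 3 were higher and 0 lower, next to 19% and 24.3% of all genes. Fcrls, which was tested only through the C1q-high cells, had 0.395 ± 0.261 counts against 0.00722 ± 0.00213, the neonatal receptor Fcgrt 1.28 ± 0.111 against 0.386 ± 0.0134, and Fcgr4, an activating IgG receptor, 3.41 ± 1.16 against 1.87 ± 0.298, the last with overlapping libraries.

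Lysosomal hydrolases and membrane proteins were higher in C1q-high cells for 13 of 24 genes and lower for 2, of which 1 was Lamp2, against 19% and 24.3% of all genes, with a median log2 difference of 0.37. Their summed level was 154.0–179 counts in C1q-high and 113–128 in other cells, and the ranges did not overlap. Lgmn (legumain, an asparaginyl protease) had 9.51, 11.3, 12.5 and 11.4 against 3.84, 3.42, 3.60 and 3.81 (1.58 ± 0.12, limma adjusted p = 2.2e-05). Ctsb (cathepsin B) had 22.3 ± 2.19 against 11.8 ± 1.15, Ctsd 6.78 ± 0.997 against 4.89 ± 0.418 and Grn (progranulin) 6.72 ± 0.414 against 3.13 ± 0.207. Of 18 lipid genes 9 were higher and 6 lower, against 19% and 24.3% of all genes. Of these, 2 of the higher genes (Nr1h3 and 1 other) and 2 of the lower were tested only through the group where they are high. Apoe, the apolipoprotein that carries cholesterol out of macrophages, had 36.8, 54.7, 27.6 and 36.2 against 19.4, 14.3, 14.0 and 16.9 counts (1.23 ± 0.17, adjusted p = 0.00045). Lipa, the lysosomal acid lipase, had 1.61 ± 0.251 against 0.466 ± 0.0369, and Pltp, a phospholipid transfer protein, 2.53 ± 1.11 against 0.551 ± 0.0651. Nr1h3, the sterol sensor LXRα, was also higher (1.53 ± 0.15). Plin2, which coats lipid droplets, was among the lower genes (-0.53 ± 0.11).

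Iron and heme genes gave 6 higher and 0 lower of 11, against 19% and 24.3% of all genes, with Cd163 tested only through the C1q-high cells. Besides Cd163 and Blvrb they were Blvra (0.58 ± 0.12), Slc11a1 (0.40 ± 0.14) and the ferritin chains Fth1 (0.30 ± 0.11) and Ftl1 (0.36 ± 0.11). Hmox1, heme oxygenase, had 7.77 ± 2.48 against 6.46 ± 0.196 counts and did not pass (adjusted p = 0.36). The count fell to 3 without library 4 or without library 5. Of 9 genes of arginine and itaconate metabolism and alternative activation, 1 (Mgl2) was higher and 4 were lower (19% and 24.3% over all genes). Mgl2 and Chil3 were tested only through the group where they are high. Nos2, the inducible nitric oxide synthase, was among the lower (-1.29 ± 0.12), while Arg1 had 2.63, 2.46, 2.28 and 2.73 against 4.17, 3.88, 3.53 and 1.56 counts, which overlapped (adjusted p = 0.33).

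Genes of antigen presentation differed by less. MHC class II genes gave 6 higher and 0 lower of 9 (19% and 24.3% over all genes), but the differences were small and their libraries mostly overlapped. H2-Aa had 18.4, 12.4, 20.1 and 21.0 counts in C1q-high cells and 13.9, 11.8, 15.2 and 14.4 in other cells (0.35 ± 0.11, limma adjusted p = 0.032). Library 3 was the lowest C1q-high profile and lay within the range of the other cells. H2-Eb1 (0.61 ± 0.15) and Cd74, the invariant chain (0.34 ± 0.12), behaved alike. Without library 2 or without library 5, 1 of the 9 genes passed, and without library 4, 3 did. MHC class I genes gave 3 higher (H2-K1, B2m and Psmb9) and 1 lower of 11, next to 19% and 24.3% of all genes. Checkpoint ligands and costimulators gave 3 higher (Lgals1, Sirpa and Pilra) and 5 lower of 13, next to the same shares. Cd274 (PD-L1) had 1.17 ± 0.269 against 1.58 ± 0.283 counts and did not pass (adjusted p = 0.073), and the costimulator Cd86 was lower (-0.75 ± 0.12).

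Most cytokines and early-response genes tested were lower. Of 22 cytokines and growth factors 14 were lower and 3 (Pdgfb, Grn and Vegfb) higher, against 24.3% and 19% of all genes. Pdgfb and Vegfb of the higher and 2 of the lower genes were tested only through the group where they are high. Il1b, the pyrogenic cytokine, had 18.5, 18.7, 13.5 and 22.4 counts in C1q-high and 60.5, 38.1, 53.6 and 53.5 in other cells, without overlap (-1.49 ± 0.16, limma adjusted p = 0.00013). Il1a (-1.98 ± 0.33), Osm (oncostatin M, -1.76 ± 0.16) and Vegfa (-1.24 ± 0.12) also fell. Spp1 (osteopontin), a marker used for another group of tumor macrophages, had 2.78, 2.33, 1.97 and 1.99 against 3.83, 5.38, 2.74 and 1.2 and did not pass (adjusted p = 0.27). Of 22 early-response genes 17 were lower and 0 higher (24.3% and 19% over all genes), with a median of -0.76. Among them Junb had 7.96 ± 2.05 against 15.9 ± 1.17 counts and Nfkbia, the NF-κB inhibitor, 8.04 ± 1.72 against 21.3 ± 1.86. Of 29 interferon-stimulated genes 13 were lower, 3 higher (Iigp1, Bst2 and Phf11d) and 13 not called, next to 24.3% and 19% of all genes, and 2 of the 13 lower were tested only through the other cells. Rsad2 (viperin) had 0.866 ± 0.278 against 2.15 ± 0.582, and Iigp1, an interferon-γ-induced GTPase, 0.658 ± 0.277 against 0.147 ± 0.0734. Without library 2, 7 interferon-stimulated genes were lower. Of 23 glycolysis and hypoxia genes 11 were lower and 0 higher (24.3% and 19% over all genes), but against other cells with an Adgre1 count 6 were higher and 7 lower, so this call depended on the cells compared.

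Of 24 transcription factors of macrophages 5 were higher and 10 lower, next to 19% and 24.3% of all genes. Spic and Nr1h3 of the higher genes were tested only through the C1q-high cells. Spic, a PU.1-related factor of red pulp macrophages that handle heme, had 0.416, 0.333, 0.737 and 0.765 against 0.0712, 0.108, 0.112 and 0.0950 counts (1.70 ± 0.17, limma adjusted p = 9.7e-05). Maf had 3.24, 3.82, 3.21 and 3.33 against 1.86, 1.55, 1.56 and 1.33 (1.07 ± 0.12, adjusted p = 0.00017), with all C1q-high libraries above all others. Spi1, which encodes PU.1, had 3.45 ± 0.383 against 3.5 ± 0.168 and did not pass (adjusted p = 0.88). Klf4, needed for monocyte differentiation, and Cebpb were lower (-1.40 ± 0.13 and -1.34 ± 0.12). Of 16 matrix proteases and inhibitors 5 were higher and 5 lower (1 of the lower tested only through the other cells), not far from the shares over all genes, among them Timp2 (1.70 ± 0.14) and Mmp14 (1.22 ± 0.15) on the higher and Mmp19 (-1.99 ± 0.22) on the lower side. Of 12 other genes of the Ms4a, Tmem176 and Trem families 3 were higher (Trem2, Ms4a6b and Treml4) and 7 lower, a count that was 3 or 4 without library 2, 4 or 5.

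**Figure D2:**
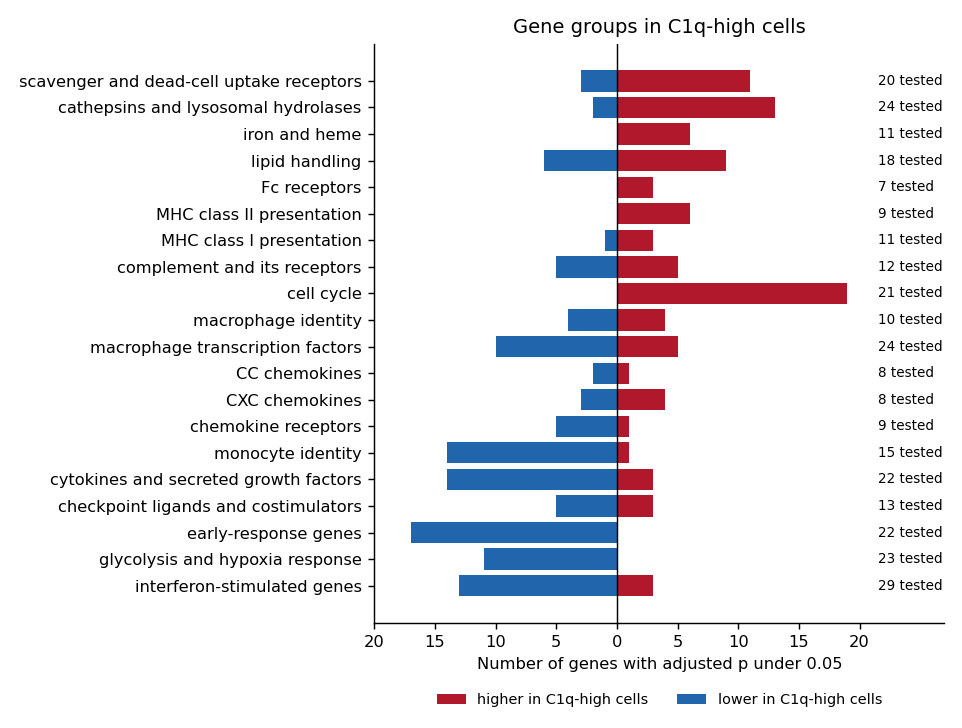
Number of genes higher (right) and lower (left) in C1q-high cells than in other Csf1r-positive cells, for 20 lists of genes, with the number tested beside each name. Of the monocyte identity genes 14 of 15 are lower, and of the cell cycle genes 19 of 21 are higher, 9 of them tested only through the C1q-high cells.

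Of 21 cell cycle genes tested, out of 27, 19 were higher and 0 lower, next to 19% and 24.3% of all genes. Of the 19, 9 reached the level needed for a test only through the C1q-high cells, Mcm6 among them. The list summed to 10.3–14.0 counts in C1q-high and 3.30–6.44 in other cells. Mcm6, a subunit of the replicative helicase, had 0.300, 0.545, 0.250 and 0.271 against 0.0385, 0.0620, 0.0553 and 0.0221 counts (1.57 ± 0.14, limma adjusted p = 5.2e-05). Pclaf, a PCNA partner of S phase, had 0.933 ± 0.257 against 0.274 ± 0.159, and Mki67 (Ki-67) 0.728, 0.818, 0.447 and 0.953 against 0.124, 0.473, 0.300 and 0.285, where the groups overlapped (adjusted p = 0.0027). Cells in cycle were 210 of 514 C1q-high and 315 of 3297 other cells. Without them 2 of 4 cell cycle genes that could still be tested were higher, in the 3 libraries that kept at least 20 C1q-high cells. Those cells were removed by counts of another list of 21 cell cycle genes, of which 16 are among the 21 tested. A fall of these 16 genes therefore followed from the removal and is not a result.

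Markers of other cell types were also counted. Over 41 markers of B, T, NK, epithelial, stromal and endothelial cells, 410 of 514 C1q-high (79.8%) and 787 of 3297 other cells (23.9%) held 2 or more counts. Without Cd72, Ighm and Cd79b these were 198 (38.5%) and 503 (15.3%). The defining genes of other types (of neutrophils, T, NK, dendritic, epithelial, stromal and B cells among others) summed to 0.242–3.36 counts per cell against 2.09–3.17 in other cells, and 65 of the C1q-high and 421 of the other cells held any. Of 15 B-cell markers 3 reached the level needed for a test, Cd72, Ighm (the IgM heavy chain) and Cd79b (a chain of the B-cell receptor). Cd79b reached it only through the C1q-high cells. Ighm had 0.972, 0.515, 0.724 and 0.647 counts against 0.124, 0.232, 0.241 and 0.263 (1.37 ± 0.2, limma adjusted p = 0.00068) and was counted in 41.8% of C1q-high, 13.2% of other and 5.17% of neutrophil-rich cells. Cd79b had 0.138, 0.0909, 0.237 and 0.188 against 0.0278, 0.0456, 0.0461 and 0.0300 (0.91 ± 0.15, adjusted p = 0.0011). Fcmr was at 0 corrected counts in the C1q-high cells of all 4 libraries, and Cd79a at 0–0.0235, Ms4a1 (CD20) at 0–0.0353, Pax5 at 0–0.0235 and Ebf1 at 0–0.0235 counts. Neutrophil markers gave 0 higher and 4 lower of 9 and summed to 6.54–16 counts against 8.97–14.7. Epithelial markers summed to 0.0395–0.624, with the highest value in library 5, and 1 fibroblast or endothelial gene, Pecam1, was higher (1.11 ± 0.15). Of the dendritic markers Batf3 was higher and Ccr7, tested only through the other cells, was lower. The 1 T or NK gene that could be tested, Klrk1, was higher (0.50 ± 0.12), and of 5 osteoclast-like genes 1 was higher and 2 lower. Mitochondrial-encoded genes gave 5 higher and 0 lower of 13, and heat shock genes 1 higher (Hspe1) and 4 lower of 8. The shares over all genes tested, 19% higher and 24.3% lower, stand beside each count of this paragraph. The part of such RNA in the differences was not tested.

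The C1q threshold cut a continuous range. Over all 4 libraries, 2520 of the Csf1r-positive cells had no C1q count, 593 had 1 to 9, 107 had 10 to 19, 77 had 20 to 29, 83 had 30 to 39, 303 had 40 to 99 and 128 had 100 or more. Just outside the threshold (20 to 29) and just inside (30 to 39), Ms4a7 had 2.35 and 2.99 counts, Mrc1 2.66 and 3.98, Ccl12 2.12 and 1.06 and Ccl8 0.286 and 5.07. The Ccl8 value just inside was 3.14 without library 3, where 10 cells had a mean of 19.2, and Mrc1 was 1.45 and 2.31 without library 2. Across the 7 groups Ms4a7 went from 0.492 to 12.4 counts and Cd72 from 0.114 to 4.80. Cd63 went from 0.964 to 7.61 and Adgre1 from 0.402 to 1.99. In the other direction, Plac8 went from 18.3 to 1.16 and Ccr2 from 5.75 to 0.984. Thbs1 went from 7.24 to 0.0234. H2-Aa had no such slope: it was 13.2 without C1q, 22.9 at 20 to 29 and 17.6 at 100 or more. Without library 2, which held most cells of the top group, Ms4a7 was 0.312 without C1q, and at 100 or more Plac8 was 0.595, Ccr2 0.595, Thbs1 0 and H2-Aa 11.3. Inside the C1q-high cells, those with 100 or more counts had more Ms4a7, Cd72, Cx3cr1, Adgre1, Cxcl9 and Cd63 than those with 30 to 39 in 4 of 4 libraries, and less Plac8, Ccr2 and Thbs1 in 4 of 4. Library 2 held 86 of the 128 cells of the top group and library 3 held 4. These values are pooled over cells and describe the sum that chose the cells. The part of free RNA in the groups with few C1q counts was not tested.

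**Figure D3:**
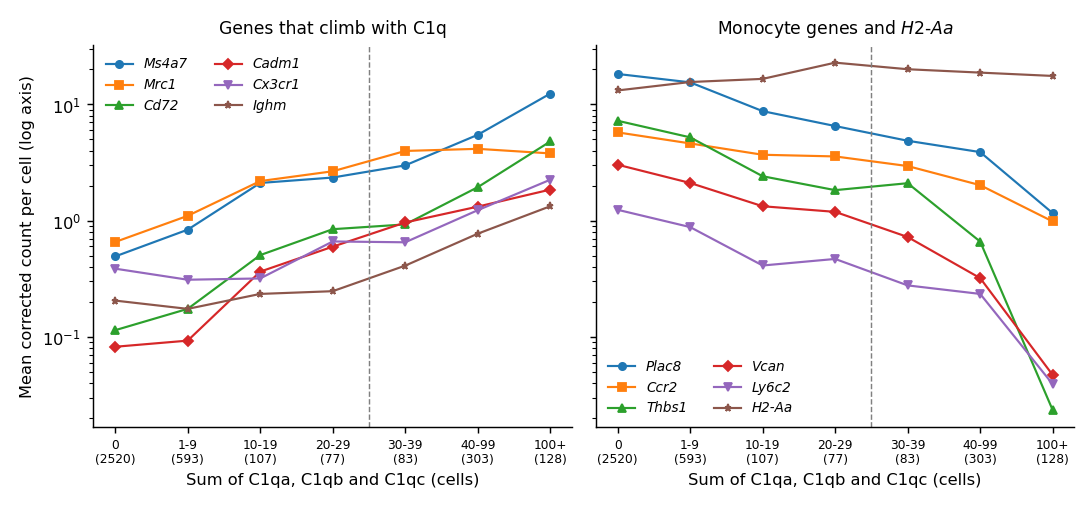
Mean corrected counts per cell (log axis) over 7 groups of Csf1r-positive tumor cells ordered by their C1q sum, pooled over 4 libraries, with a dashed line at the threshold of 30. Ms4a7 climbs from 0.492 to 12.4 and Plac8 drops from 18.3 to 1.16, without a step at the threshold, while H2-Aa stays between 13.2 and 22.9.

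The C1q-high cells were not uniform. Cells with a Ccl8 count numbered 55, 7, 16 and 21 in libraries 2, 3, 4 and 5, 19.3% of all. As a mean of the 4 libraries they had 9.84 counts of Mrc1 against 2.65 in the C1q-high cells without Ccl8, 2.96 against 0.0622 of Cd163, 2.34 against 0.384 of Folr2 and 1.17 against 0.0272 of Lyve1, the hyaluronan receptor. Pf4 was 15.4 against 6.31 and Apoe 68.3 against 30.8. Each of these 6 was higher in 4 of 4 libraries. H2-Aa (9.96 against 20.1), Cd74 (26.4 against 49.9) and Cd72 (1.37 against 2.70) were lower in 4 of 4. Library 3 contributed 7 cells, with 0.857 counts of H2-Aa. No test was made among cells, which are not replicates.

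The cells in cycle differed from these. They were 138, 16, 20 and 36 of the C1q-high cells in libraries 2, 3, 4 and 5, or 40.9% in all, with a C1q sum of 83.7 against 70.5 in the rest as a mean of libraries. They had more Ccl12 (5.43 against 2.09), Cx3cr1 (2.08 against 0.661), Cd72 (3.36 against 1.85) and Ighm (1.13 against 0.421) in 4 of 4 libraries. They had less Ccl8 (1.93 against 10.2), Apoe (24.4 against 49.5), H2-Aa (10.9 against 22.5), Plac8 (1.54 against 5.19) and Il1b (12 against 22.5) in 4 of 4. Across single C1q-high cells, Spearman's rho between Mrc1 and Folr2 was 0.38 to 0.64 over the 4 libraries, between Mrc1 and Stab1 0.31 to 0.60 and between Ccl8 and Cd163 0.34 to 0.66. It was 0.35 to 0.51 between Ccr2 and Plac8 and 0.24 to 0.37 between Cx3cr1 and Ighm. Between Ccl8 and H2-Aa it was -0.26 to -0.11. The sum of C1q correlated with Cd72 (0.37 to 0.50) and inversely with Plac8 (-0.43 to -0.22). These describe 33 to 320 cells per library that share a library and a depth correction.

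**Figure D4:**
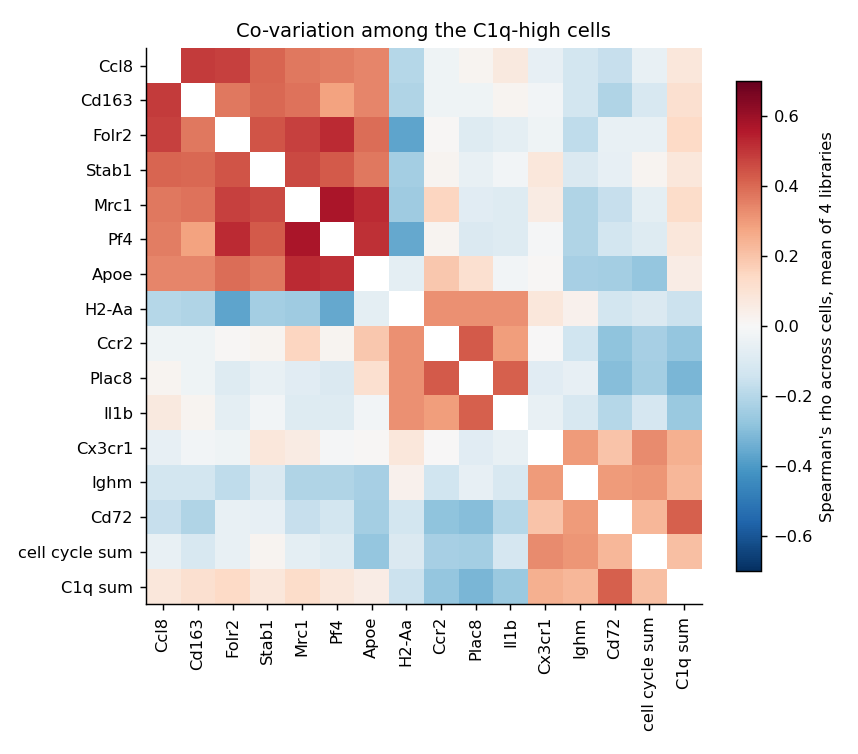
Spearman's rho between 16 features across C1q-high cells, as the mean of the 4 libraries (color scale, no unit). Ccl8, Cd163, Folr2, Stab1, Mrc1, Pf4 and Apoe form one block, H2-Aa, Ccr2, Plac8 and Il1b another, and Cx3cr1, Ighm, Cd72 and the cell cycle sum a block of their own.

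The study asked whether macrophages from B cells occur in tumors, so genes that differed between B-MF and Mo-MF in culture were looked up in the C1q-high cells. In culture 1953 of 8629 genes (22.6%) were higher in B-MF and 1456 (16.9%) in Mo-MF (limma, 2 libraries each). With 1 of these libraries left out the counts were 1110–3853 and 861–2948. Of the B-MF-higher genes, 1610 were tested in the tumor, and 473 of them (29.4%) were higher and 284 (17.6%) lower in C1q-high cells, with a median log2 difference of 0.11. Of 1150 Mo-MF-higher genes, 131 (11.4%) were higher and 474 (41.2%) lower, with a median of -0.24. The 3725 genes not called in culture gave 634 (17.0%) and 748 (20.1%). The Mo-MF cultures held neutrophil transcripts: Ngp (neutrophilic granule protein) had 8.17 and 5.21 counts per cell over all cells of the 2 Mo-MF libraries and 0 in both B-MF libraries, and at most 0.0575 in Mo-MF cells that passed the S100a8, S100a9 and Csf1r steps. Among cells past those steps 1787 of 8593 genes (20.8%) were higher in B-MF and 1449 (16.9%) in Mo-MF. Of these B-MF-higher genes 403 (26.9%) were higher and 313 (20.9%) lower in C1q-high tumor cells, and of the Mo-MF-higher genes 152 (13.5%) and 415 (36.9%). As a share of the tumor lists, and with all culture cells, B-MF-higher genes made up 37.0% of the higher and 17.4% of the lower genes, and Mo-MF-higher genes 10.2% and 29.1%. Without the cells in cycle, 314 (19.7%) of 1592 B-MF-higher genes were higher and 241 (15.1%) lower, next to 11.4% and 20.2% over all genes of that comparison, and 97 (8.42%) and 379 (32.9%) of 1152 Mo-MF-higher genes. Without library 2, 340 B-MF-higher genes were higher and 176 lower. The counts describe genes and not the origin of a cell.

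The genes that the study named for B-MF differed among themselves. C1qa and C1qb are set by the rule, and the marker Mrc1 was higher in C1q-high cells, as described above. Among lipid genes that it named, Pltp was higher (1.93 ± 0.19, limma adjusted p = 8.3e-05). Acat1, a mitochondrial thiolase, had 0.397, 0.394, 0.618 and 0.353 against 0.297, 0.354, 0.355 and 0.383 counts and did not pass (adjusted p = 0.16). Fasn, fatty acid synthase, was below the level needed for a test, with 0.139 ± 0.0275 against 0.0560 ± 0.00796 counts (SD, n = 4). Of Egr1, Ier2, Ier3 and Slc40a1, 0 were higher and 2 lower. Ier3 had 3.11, 5.42, 2.91 and 3.87 counts in C1q-high cells of libraries 2, 3, 4 and 5 and 11.5, 10.0, 9.06 and 10.7 in the other cells (-1.44 ± 0.15, limma adjusted p = 0.00013), and Ier2 was lower as well (-0.87 ± 0.11). Egr1 had 1.69, 2.64, 2.28 and 2.61 against 2.13, 2.67, 2.82 and 2.24, which overlapped (adjusted p = 0.51). Slc40a1, the iron exporter ferroportin, had 0.353, 0.0909, 0.421 and 1.05 against 0.113, 0.215, 0.187 and 0.217 and did not pass (adjusted p = 0.081). The study named Egr1, Ier2, Ier3 and Slc40a1 from single cells of this series, so they are not independent evidence of a direction. It does not say on which data Pltp, Acat1 and Fasn were chosen. Over all cultured cells, Mo-MF held more Pltp, with 16.9 and 17.0 counts per cell against 14.5 and 14.1 in B-MF. The B-MF minus Mo-MF log2 difference was -0.24 ± 0.05 (limma adjusted p = 0.0062). Acat1 (0.56 ± 0.056) and Fasn (0.57 ± 0.052) went the other way. The rise of Pltp in C1q-high tumor cells thus did not have the direction of B-MF in culture.

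**Figure D5:**
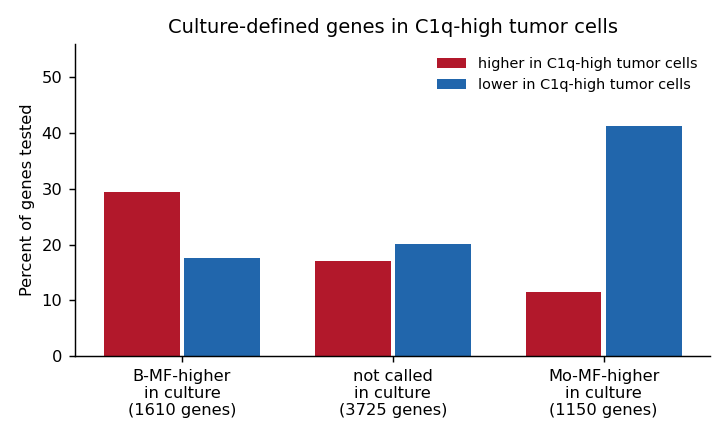
Percent of genes higher and lower in C1q-high tumor cells, for genes higher in cultured B-MF, genes higher in cultured Mo-MF and genes that did not differ in culture. Of B-MF-higher genes 29.4% were higher and 17.6% lower, and of Mo-MF-higher genes 11.4% and 41.2%.

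In culture the same rule chose 60.2% and 59.9% of the Csf1r-positive cells of the 2 B-MF libraries and 41.4% and 41.3% of those of the 2 Mo-MF libraries. Cultured cells had 2.24 times the median corrected count of tumor cells, and with a threshold of 67, raised by that ratio, the shares were 40.6%, 40.5%, 22.8% and 22.4%. Tumor and culture were normalized apart, so their shares are not compared. Within culture, C1q-high and other cells differed less than in the tumor table, with 447 of 8603 genes (5.20%) higher and 383 (4.45%) lower (limma, library as a block, n = 4). The difference between tables was not tested. Of the genes higher in culture, 388 were tested in the tumor, of which 131 (33.8%) were higher and 91 (23.5%) lower, with a median of 0.09, next to 19% and 24.3% of all genes tested in the tumor. Of 299 genes lower in culture, 51 (17.1%) were higher and 124 (41.5%) lower in the tumor, with a median of -0.24. With the raised threshold 471 of 8577 genes (5.49%) were higher and 400 (4.66%) lower in culture. Of the higher ones 122 (29.2%) were higher and 112 (26.8%) lower in the tumor, with a median of 0.03, and of the lower ones 47 (15.5%) and 125 (41.1%), with a median of -0.24.

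Of the 10 leading higher genes, 6 were tested in culture, of which 3 had the same sign and 2 passed, Cd72 (log2 difference 0.44 ± 0.083, adjusted p = 0.024) and Cadm1 (0.34 ± 0.07, adjusted p = 0.032). Of the 10 leading lower genes 7 were tested, 6 had the same sign, and Hopx (-0.54 ± 0.043) and Sdc1 (-0.61 ± 0.13) passed. Of the 6, Vcan and Hp were lower in C1q-high cells of both Mo-MF libraries but higher in those of both B-MF libraries. Cd63 had a difference of -0.06 ± 0.029 in culture (adjusted p = 0.23), against 2.24 in the tumor. Folr2 (0.25 ± 0.048) and Maf (0.24 ± 0.026) were higher in C1q-high cells of the cultures, as they were in the tumor. MHC class II genes differed by more in culture: Cd74 by 1.59 ± 0.15, H2-Ab1 by 1.34 ± 0.094, H2-Aa by 1.32 ± 0.13 and H2-Eb1 by 1.23 ± 0.15. Each was higher in 4 of 4 culture libraries. H2-DMa differed by 0.35 ± 0.054, and Ctss by 0.08 ± 0.026, which did not pass (adjusted p = 0.1). Ighm differed by -0.20 ± 0.054 between C1q-high and other cultured cells and did not pass (adjusted p = 0.074), while it was higher in B-MF than in Mo-MF by 1.71 ± 0.064 (adjusted p = 5e-07). Cd72 differed by -0.01 ± 0.054 between B-MF and Mo-MF (adjusted p = 0.87).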

How the data were processed

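TAM were FACS-purified from 4T1.2 tumors, and their transcripts were counted per cell (10x Genomics, Cell Ranger, mm10 per the labels). The authors kept cells with at least 1000 detected genes, used SCTransform to correct counts for depth, and deposited them as natural log values (ln of 1 plus the corrected count). The deposited values gave whole numbers within 1e-06 when converted back, but corrected counts are not raw counts, so no count model was fitted and the depth of sequencing is unknown. SCTransform brings cells to a shared depth, which lowers differences in total RNA between cells.

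Corrected counts were averaged over cells per library and group. These means, on the log2 scale after a pseudocount of 0.1, were fitted in limma (lmFit, eBayes) for all genes with a mean of at least 0.1, two-sided, with the library as a block because both groups of a library come from the same sort. Adjusted p-values are Benjamini-Hochberg over all genes tested. Nothing in the labels says that B-MF and Mo-MF libraries came from separate animals, so their p-values measure the spread between libraries, which may be technical. The paired fit of the tumor profiles was tested on data made with known differences, and the B-MF against Mo-MF fit was not. The made data gave both groups the same spread for a gene. The real means rest on 33 to 320 C1q-high and 548 to 1221 other cells per library, and such unequal noise was not part of that test. The rule, the members and the gene lists were chosen with earlier results of these data known. Genes named are those of the lists and the 10 largest differences per direction with the same sign in 4 libraries and a mean of at least 1 count in the higher group, with Acat1, Fasn and Ngp added after their values were seen. The alternatives were another pseudocount, filter, scaling or depth, other thresholds, other comparison cells, no block and each library left out. ATAC-seq data were not used here, and some genes of the lists are not reported here. Promoters are from RefSeq, and C1qa and 5 leading genes (Cadm1, Ccnd1, Dnase1l3, Thbs1 and Hp) had no entry in the table used. Tools were R 4.3.3, limma 3.58.1, Python 3.11.15, numpy 2.4.6, pandas 2.3.3, scipy 1.17.1 and matplotlib 3.10.9.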

Additional observations from a re-analysis of the deposited data

Results flagged for a closer look

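For each named gene the 4 library means of a group were searched for 1 library far from the other 3 (Dixon's criterion). Of 300 groups of values 25 were marked, and chance marks about 1 in 20 groups. Library 3, with 33 C1q-high cells, was the highest for Slpi (7.09 counts per cell), Thbs1 (2.0), Stab1 (1.82), Lrp1 (1.73), Osm (1.0), Mcm6 (0.545), Sdc1 (0.364), Siglec1 (0.333), Hopx (0.242) and Csf1r (3.67), and the lowest for Pilra (0.818) and Iigp1 (0.242). In the C1q-high cells of library 4, Lipa (1.99), Nr1h3 (0.816) and Acat1 (0.618) were highest and Cd86 (0.605) lowest. Dmkn was highest in library 2 (0.203), and Pax5 (0.0235) and Ebf1 (0.0235) had counts in the C1q-high cells of library 5 alone. Among the other Csf1r-positive cells, Ms4a7 was highest in library 2 (0.973), C4b was highest (0.130) and Csf1r (2.54) and Pdgfb (0.0404) lowest in library 5, Fcgr4 lowest in library 3 (1.43) and Fcmr at 0 in library 2.

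Of 107 named genes tested in both tables, 16 moved one way in all 4 tumor libraries and the other way in all 4 cultures. The difference between tumor and culture was not tested. No share over all genes tested in both tables is given here, so the 16 are a list and not a result about these genes. Of genes lower in C1q-high tumor cells, C5ar1 (log2 difference in culture 0.40), Cxcr4 (0.28), Nfkbia (0.21), Cd14 (0.19), Id3 (0.14), Lyz2 (0.13), Tyrobp (0.13), Pros1 (0.10) and Lamp2 (0.07) had positive differences in culture, of which C5ar1, Cxcr4, Cd14 and Lyz2 passed the test there (limma, adjusted p = 0.064 to 0.15 for the other 5). Of genes higher in the tumor, Fth1 (-0.34), Ftl1 (-0.28), Ighm (-0.20), Lgals1 (-0.14), Ctsd (-0.13), Hspe1 (-0.09) and Cd63 (-0.06) had negative differences in culture, of which Fth1, Ftl1 and Ctsd passed (adjusted p = 0.074 to 0.23 for the other 4). All of these differences in culture were under 0.5 on the log2 scale.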

How the results depend on the processing

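The 20 leading genes kept their direction and call under 15 of 16 alternatives. With no filter on low values 19 kept the call and Slpi lost it (adjusted p = 0.059). Of 123 named genes that passed, 99 to 122 stayed past the threshold under each alternative and 1 changed direction: Adgre1 was -0.16 against other cells with Adgre1 (adjusted p = 0.3), which follows from comparing only cells that have it. The number of higher genes was 755 without the cells in cycle, an alternative chosen after seeing the data, as were the fits without cells with a defining marker of other cells and with S100a8 plus S100a9 under 30. It was 879–1356 over the 4 libraries left out in turn, and the number of lower genes 1036–1860, with the lowest of both without library 2 and the highest without library 3; the cause was not tested. The fits with C1q of at least 60, without the cells in cycle and with S100a8 plus S100a9 under 30 used libraries 2, 4 and 5, since library 3 kept fewer than 20 C1q-high cells. With C1q of at least 15 the share of C1q-high cells was 24.7%, 9.12%, 12% and 12.7% in libraries 2, 3, 4 and 5, and with at least 60 it was 13.4%, 2.58%, 5.26% and 5.39%. With a library left out, the difference in median corrected counts was -191 to -110.0, in detected genes -64.0 to -7.50 and in mitochondrial share 0.336 to 0.553 percentage points. Without a block for the library, 1295 genes were higher and 1609 lower.

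The B-MF against Mo-MF counts rested on 2 libraries each. They were 1110–3853 for B-MF and 861–2948 for Mo-MF over the libraries left out (3853 without B-MF 2, 1126 without Mo-MF 1, 1110 without Mo-MF 2 for the first; 2948 without B-MF 1 and 861 without Mo-MF 1 for the second), where a lone library was assumed to vary like the other group. With the replicate number as a block they were 2236 and 1668, and with 2 pairs the numbers could not be shown to pair the cultures. The count of B-MF-higher genes higher in the tumor was 314 without the cells in cycle and 340–501 with a library left out. Of them 176–317 were lower, the fewest without library 2, and of Mo-MF-higher genes 88–141 were higher and 334–525 lower.

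The planned fit without cells holding 2 or more counts of other cell types could not be made, since 410 of the C1q-high cells had them and 1 library kept 20 or more. With 33 C1q-high cells, library 3 limits the precision of low genes.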
